A study of Mus musculus with 2 samples.

Results

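The cells described here are the general capillary and other blood endothelial cells of the neonatal mouse lung: what remained of the authors' endothelial cluster, cluster 11 of 23, after cells with lymphatic, arterial or Car4-high capillary transcripts were set aside. A cell was kept when it held under 2 UMIs (unique molecular identifiers, each standing for 1 captured transcript) of Prox1 plus Mmrn1, under 2 of Gja5 plus Bmx plus Gja4, and under 3 of Car4 plus Ednrb. The rule kept 569 cells of the IgG library and 572 of the 5E1 library, 1141 of the 22963 cells the authors retained and 1141 of the 2607 in cluster 11. The 3 other groups of the cluster held 988 arterial, 725 Car4-high and 143 lymphatic cells, and they overlapped. Both arterial and Car4-high were 318 cells, both lymphatic and arterial 71, and both lymphatic and Car4-high 22. All pups were Gli1CreERT2/+,R26RtdT/+ mice, in which a tamoxifen-activated Cre driven by Gli1 turns on a red fluorescent reporter, and all received tamoxifen on postnatal day 1. On postnatal day 3 they were injected with 5E1, an antibody that blocks Hedgehog ligands, or with control IgG, and whole lungs were dissociated on postnatal day 6. Each library pooled the lungs of 3 pups, so there was 1 library per condition: no difference between the conditions could be checked against replicates, no p-value is given, and all intervals (95%) cover counting error only.

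General capillary cells are the microvascular cells of the alveolar wall that keep a proliferative, repair-competent state, carry Gpihbp1 to bind lipoprotein lipase, and lie beside the Car4-high aerocytes that line the gas exchange surface. Blood vessel endothelium also includes venous cells, marked by Vwf and Slc6a2, which the rule did not set aside. Interferons act on endothelium through cell surface receptors, inducing GTPases that restrict intracellular microbes and the machinery that loads peptides on MHC class I molecules.

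The label was checked against its 4 markers, with B cells as background, which bears on endothelial identity and not on the kind of endothelium. Cldn5, a tight junction protein of endothelium, was at 3449 CPM (3378 to 3521) in the IgG library, where CPM is a gene's UMIs scaled to the same total in each library, and 3360 CPM (3293 to 3429) in the 5E1 library. Cdh5, the endothelial cadherin, was at 746 and 845 CPM, Plvap, which forms the diaphragms of fenestrae and caveolae, at 938 and 1103 CPM, and Gpihbp1 at 906 and 1012 CPM. In the B cell cluster, which should lack these transcripts, Gpihbp1 was at 13.8 and 13.4 CPM. A Gpihbp1 UMI was found in 73.3% and 77.8% of the cells, against 3.68% and 3.52% of the B cell cluster, at median depths of 3113 and 3520 UMIs per endothelial cell and 2499 and 3325 per B cell.

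Some barcodes went against the label. Under 4 UMIs of a 20-gene endothelial list were found in 46 IgG cells (8.08%) and 33 5E1 cells (5.77%), with median totals of 1097 and 1207 UMIs. In these the summed haemoglobin and platelet list stood at 123731 and 246320 CPM, and Pf4, a platelet transcript, at 15.6 and 5719 CPM. The libraries also shared 184 barcodes among the retained cells. Of these 18 fell in the same cluster in both libraries, 14 of them in cluster 11, and 11 were kept by the rule in both libraries. For 10 of the 11 the totals lay within 1.5-fold of each other. Results that change without either kind of barcode are named where they occur.

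The rule also selected on depth, because a deeper cell is more likely to show the excluded transcripts. The median totals of 3113 and 3520 UMIs compare with 9056 and 10645 in the arterial and 9300 and 9577 in the Car4-high cells. Cells just inside and just outside the arterial limit had similar levels of Gpihbp1, which was at 914 and 1205 CPM in cells with 1 UMI of Gja5 plus Bmx plus Gja4, and at 965 and 1103 CPM in cells with 2. At this limit the group is thus bounded by a threshold and not by a gap. Just inside the Car4 plus Ednrb limit Gpihbp1 was at 629 and 754 CPM, and just outside at 691 and 401 CPM. Aplnr there was at 441 and 466 CPM inside and 198 and 465 CPM outside. The Prox1 plus Mmrn1 limit had 4 and 5 cells just inside and 5 and 5 just outside, too few to compare.

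Sex differed between the pools. An Xist UMI, the transcript of the inactive X, was found in 80.3% of the IgG and 32.0% of the 5E1 cells, and a Y-linked UMI in 0.176% and 22.9%. The comparison was therefore repeated among cells with Xist and no Y-linked UMI (457 and 174 cells), where several list medians had the other sign.

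Among all clusters, these cells stood out by genes of blood endothelium. These are descriptions, since the same cells were clustered on them. Aplnr, the apelin receptor, was at 400 and 465 CPM, 113-fold and 110-fold its mean over the other 22 clusters. Gpihbp1 was 104-fold and 101-fold above that mean, and Emcn, a sialoglycoprotein of capillary and venous endothelium, 91.9-fold and 82.5-fold. Ccdc85a, Sox17, Cldn5, Ushbp1, Grrp1, Ripply3, Adgrl4, Tmem252, Rasip1, Exoc3l, Gpr182 and Plvap completed the 15 highest.

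Within the cluster, Fabp4, Fabp5, Slc6a2, Ackr3 and Aplnr were higher in these cells than in both other blood groups. Fabp4, a fatty acid binding protein, was at 107 and 141 CPM here, at 34.9 and 21.2 CPM in arterial and at 15.1 and 27.4 CPM in Car4-high cells, but at 121 and 92.8 CPM in lymphatic cells. Fabp5 was at 194 and 218 CPM against 65.0 and 57.8 in arterial cells. Aplnr was at 212 and 230 CPM in arterial, 188 and 239 in Car4-high and 13.8 and 28.9 in lymphatic cells. Not every gene listed for general capillary cells was higher here. Kit was at 88.4 and 91.1 CPM here, 83.0 and 99.2 in arterial and 89.9 and 99.0 in Car4-high cells. Cd93, at 684 and 657 CPM here, was at 729 and 765 in arterial and 686 and 735 in Car4-high cells. Tmem100, at 1024 and 1161 CPM here, was at 1175 and 1433 in arterial and 1234 and 1385 in Car4-high cells. Slc6a2, a noradrenaline transporter, was at 40.5 and 70.5 CPM against 12.0 and 9.69 in arterial cells, and Ackr3, a chemokine scavenging receptor, at 199 and 267 against 83.0 and 79.7. Other venous genes did not set the cells apart from arterial cells: Vwf was at 267 and 380 CPM here and at 228 and 378 CPM there, and Nr2f2, a venous transcription factor, at 83.4 and 94.0 against 79.3 and 77.6 CPM. Cldn5 and Cdh5 were higher in both other blood groups. Cldn5, at 3449 and 3360 CPM here, was at 3747 and 3805 CPM in arterial and 4585 and 4407 CPM in Car4-high cells. Cdh5, at 746 and 845 CPM here, was at 881 and 1003 CPM in arterial and 1014 and 1109 CPM in Car4-high cells. Gpihbp1, at 906 and 1012 CPM here, was at 744 and 828 CPM in arterial and 648 and 694 CPM in Car4-high cells. Plvap, at 938 and 1103 CPM here, was at 782 and 850 CPM in arterial and 585 and 725 CPM in Car4-high cells.

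**Figure D1:**
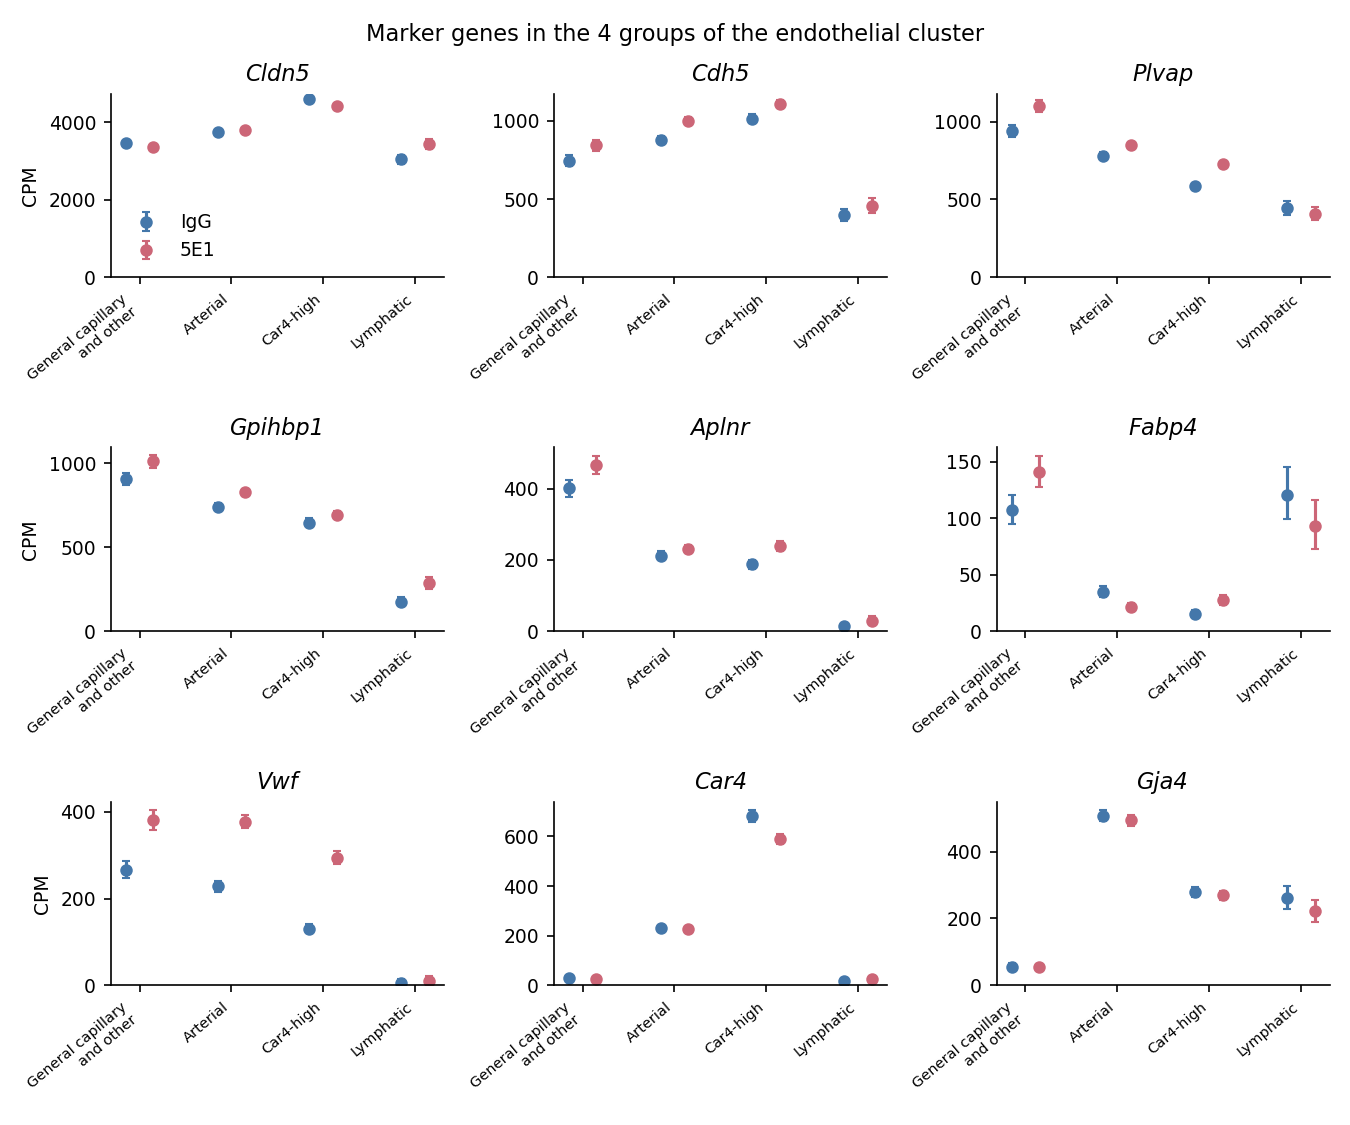
Level of 9 genes (CPM, linear axes from 0) in the 4 groups of the endothelial cluster, 1 point per library, with exact Poisson intervals that cover counting error only. Aplnr was at 400 and 465 CPM in general capillary and other cells and lower in each other group, while Car4 and Gja4, used by the rule, are low there by construction.

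The cells made up 4.21% (3.88 to 4.56) of the retained IgG cells and 6.05% (5.58 to 6.55) of the retained 5E1 cells, a ratio of 1.44 (1.28 to 1.62). Of non-immune cells they were 5.95% and 9.33%. Of cluster 11 they were 44.0% and 43.5%, so their share within the cluster was nearly equal, while the cluster as a whole was 9.57% and 13.9% of retained cells. Arterial cells were at 3.58% and 5.34% and Car4-high cells at 2.47% and 4.15% of retained cells. Lymphatic cells were at 0.651% and 0.582%, a ratio of 0.89 (0.63 to 1.26), and at 6.81% and 4.19% of cluster 11, a ratio of 0.62 (0.43 to 0.87). Dissociation yields of the 2 preparations cannot be told apart from cell numbers in the lung.

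Expression was compared over the 6385 genes with at least 100 UMIs in the 2 libraries together. Of these, 69 (1.08%) were higher and 156 (2.44%) lower in the 5E1 library by over 1.5-fold, and 96.48% lay within that fold. The median log2 ratio of 5E1 over IgG was 0.00406 over all of them.

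Interferon-induced genes were lower in the 5E1 cells. Of the 18 measured genes of the interferon list, 14 were lower by over 1.5-fold and none higher, with a median log2 ratio of -1.29. Igtp, an interferon-induced GTPase, had 421 UMIs in all IgG cells and 35 in all 5E1 cells, or 161 CPM (146 to 177) and 12.5 CPM (8.68 to 17.3), and was 12.9-fold lower (9.15 to 18.8). Iigp1, of the same GTPase family, was at 300 and 54.5 CPM. The guanylate binding proteins Gbp2, Gbp7, Gbp3 and Gbp4 were at 145 and 29.9, 197 and 46.3, 73.1 and 17.8, and 152 and 51.6 CPM. Irf7, an interferon-induced transcription factor, was at 48.6 and 17.4 CPM. Isg15, a ubiquitin-like modifier, was at 158 and 58.7 CPM. All 15 of the lowest ratios under the ranking rule belonged to genes at least 2-fold lower, and of these Wars, a tRNA synthetase known to be induced by interferon, had the mildest, at 131 and 52.0 CPM.

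Not every gene of the list was lower. Ifitm2, a membrane protein that restricts virus entry, was at 1260 and 1352 CPM, a ratio of 1.07 (1.02 to 1.13), while its neighbour Ifitm3 was at 2731 and 1816 CPM, a ratio of 0.66 (0.64 to 0.69). Irf1 was at 106 and 85.8 CPM and Ifi27 at 89.1 and 78.3 CPM, both within 1.5-fold.

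Antigen presentation genes were lower together with them. All 11 measured genes of the MHC list were lower by over 1.5-fold, with a median log2 ratio of -1.40. The class I heavy chains H2-K1 and H2-D1 were at 815 and 308 CPM and at 2007 and 867 CPM, and B2m, their shared light chain, at 2763 (ratio 0.49, 0.47 to 0.51) and 1346 CPM. Tap1, a subunit of the peptide transporter, was at 159 and 31.0 CPM. Psmb9 and Psmb8, subunits of the immunoproteasome, were at 253 and 68.7 and at 440 and 179 CPM. H2-Q7 was at 155 and 24.2 CPM. H2-K1, H2-D1 and H2-Q7 are near-identical in places, so counts between them may be split.

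Class II transcripts were lower as well, at levels nearer to free RNA. H2-Ab1 was at 92.9 and 14.9 CPM and Cd74, the invariant chain, at 166 and 75.8 CPM. The median over the 22 other clusters was 32.2 and 12.9 CPM for H2-Ab1 and 126 and 95.5 CPM for Cd74. Cd74 in the B cell cluster was at 9937 and 9833 CPM.

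**Figure D2:**
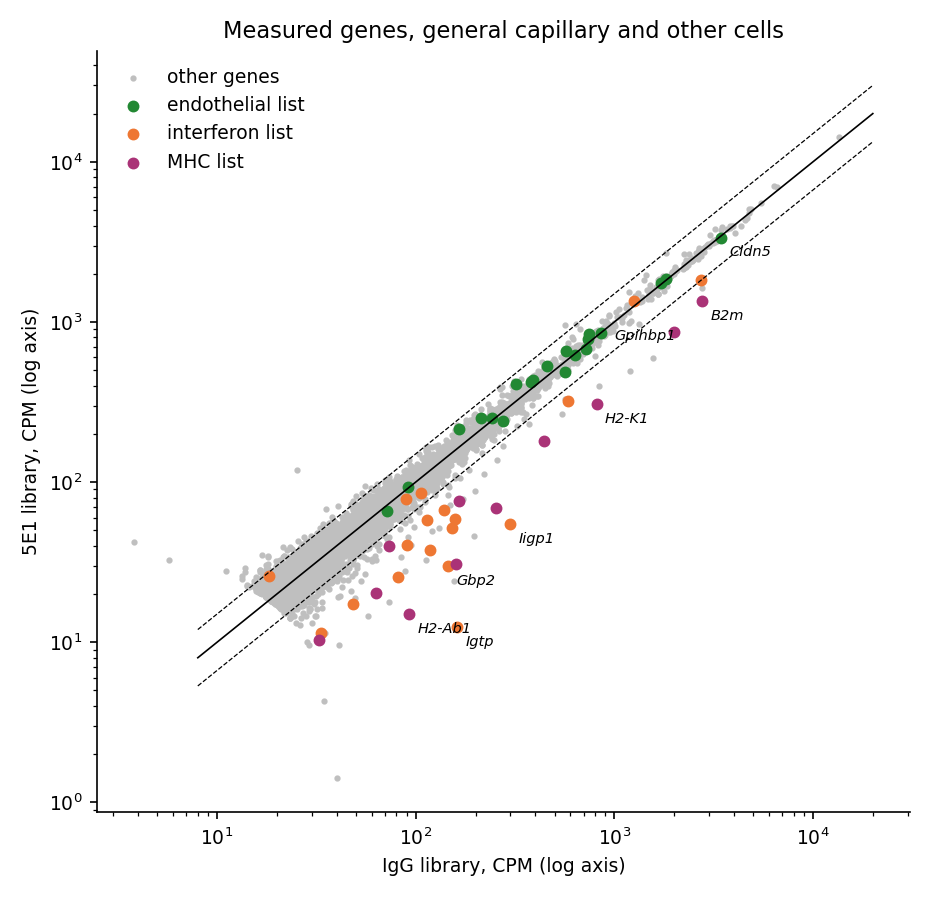
CPM of each measured gene with a UMI in both libraries, IgG (x) against 5E1 (y), on log axes; the solid line marks equal levels and the dashed lines 1.5-fold. Genes of the endothelial list lie within the dashed lines, and 14 of 18 interferon and 11 of 11 MHC genes lie below the lower dashed line.

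The promoters of some of these genes carry an ISRE-like motif, the kind of element bound by interferon-activated factors. Among the 15 genes with the lowest ratios, 11 had a promoter entry in RefSeq (GRCm38.p6), and in 6 of these the 250 bases before the start held GAAA, any pair of bases and GAAA in a row, on either strand. These 6 were Igtp, Gbp2, Gbp7, Gbp3, Irgm1 and Isg15, while H2-Q7, H2-K1, Tap1, Psmb9 and Ifi47 had no match. The same letters occurred in 978 of 32851 promoters (2.98%). Among list genes with an entry they occurred in 8 of 15 of the interferon list and 1 of 8 of the MHC list. The GAS-like motif, TTC, any 3 bases and GAA, occurred in 2 of the 11 and in 7.02% of all promoters. A match describes the letters and does not show binding. The 100 bases before the start are shown for 3 of the 6 genes with a match, on the strand of the gene. The ISRE-like match is in capitals. Its first base lies 34 bases before the start for Igtp and 53 for Gbp7. For the nearest of 3 overlapping matches of Isg15 the first base lies 66 before it:
Igtp, chr11:58199456-58199555, plus strand: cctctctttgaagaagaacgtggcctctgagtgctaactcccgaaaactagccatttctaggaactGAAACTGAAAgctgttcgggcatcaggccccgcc
Gbp7, chr3:142530236-142530335, plus strand: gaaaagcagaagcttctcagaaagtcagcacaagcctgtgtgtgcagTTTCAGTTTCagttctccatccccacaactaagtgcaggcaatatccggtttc
Isg15, chr4:156200819-156200918, minus strand: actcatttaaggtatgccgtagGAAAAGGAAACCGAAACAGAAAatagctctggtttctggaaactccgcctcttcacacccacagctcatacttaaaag

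The difference was seen in the median cell, and for the MHC list was widest among the cells with most UMIs of the list. After each cell was thinned at random to 1000 UMIs, which left out 69 IgG and 57 5E1 cells, the median cell held 6 UMIs of the interferon list in the IgG and 4 in the 5E1 library. For the MHC list the medians were 5 and 3, the lower quartiles 2 and 1, and the upper quartiles 12 and 5. The MHC counts of the IgG cells did not fall off evenly: 69 cells held 2 UMIs, 8 held 10 and 21 held 13. Averaged over all possible thinnings, an Igtp UMI was expected in 15.3% (12.3 to 18.8) of IgG and 1.69% (0.77 to 3.22) of 5E1 cells, and an Iigp1 UMI in 22.2% and 3.59%. In the B cell cluster Igtp was seen in 3.73% and 0.70% of cells in 1 random thinning, though B cells can respond to interferon themselves.

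**Figure D3:**
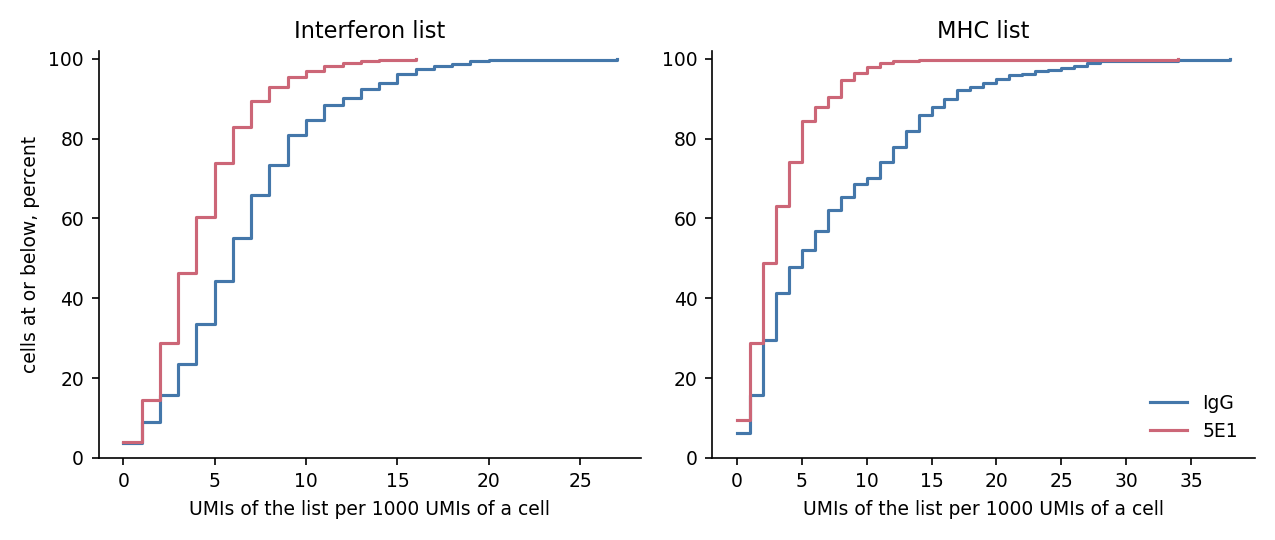
Cumulative share of cells (percent) by the UMIs of the interferon list (left) and the MHC list (right) per 1000 UMIs of a cell, after 1 random thinning of 500 IgG and 515 5E1 cells. The 5E1 curves lie to the left, with medians of 4 against 6 and 3 against 5 UMIs.

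The difference was present in each selection of cells. Among cells with Xist and no Y-linked UMI the medians were -1.16 for the interferon and -1.44 for the MHC list. Without dividing cells, here those with 2 or more unthinned UMIs of the G2 and M or of the S phase list, they were -1.08 and -1.13. In cells of at least 2000 UMIs they were -1.42 and -1.44. Without the cells of under 4 endothelial UMIs they were -1.44 and -1.43, and without the shared barcodes -1.30 and -1.39. Over the 15 alternatives run for each list, the medians lay between -1.45 and -0.96 and between -1.68 and -1.13.

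Nor was it particular to these cells. In arterial cells 17 of 20 interferon and 12 of 12 MHC genes were lower by over 1.5-fold, where 3.47% of all measured genes were. In Car4-high cells the counts were 16 of 19 and 11 of 11, against 2.74%. In lymphatic cells they were 3 of 7 and 5 of 5, against 3.97%. The 3 groups share cells, so these counts are not separate. The interferon list's median was below 0 in 20 of the 22 other clusters, from -1.99 in cluster 6, an immune cluster, to 0.21. With 1 pooled library per condition, an effect of 5E1 and a difference between the pools of pups cannot be told apart.

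The identity genes of the cells differed little, as did most measured genes. All 20 measured genes of the endothelial list lay within 1.5-fold, with a median log2 ratio of 0.04, and so did all 15 of the general capillary list (median 0.20), 18 of junction and adhesion genes, 18 of basement membrane genes, 23 endothelial transcription factors and 10 lipid uptake genes. Of all measured genes 96.48% lay within that fold, so these counts are near the share over all genes. In the cells with Xist and no Y-linked UMI the medians of the endothelial and general capillary lists were -0.08 and 0.03. Kdr, the main VEGF receptor, was at 277 and 239 CPM, and Tek, the angiopoietin receptor, at 164 and 216 CPM, a ratio of 1.31 (1.16 to 1.49). Cd36, a fatty acid transporter, was at 265 and 390 CPM, a ratio of 1.48 (1.34 to 1.62), just inside the limit. Col4a1 and Col4a2, the basement membrane collagens, were at 479 and 495 and at 521 and 516 CPM.

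**Figure D4:**
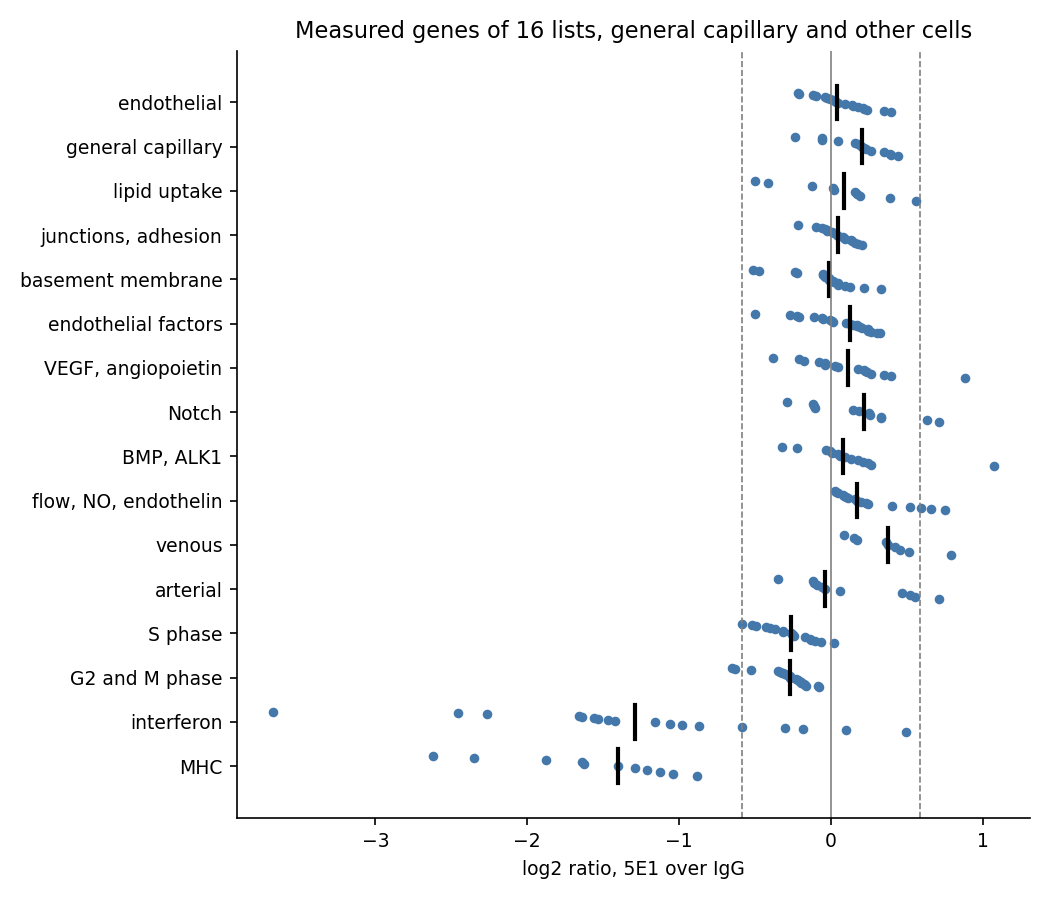
Log2 ratio of 5E1 over IgG for each measured gene of 16 lists (points) and the list's median (bar); dashed lines mark 1.5-fold. The endothelial points lie inside the dashed lines around a median of 0.04, while the interferon and MHC medians lie at -1.29 and -1.40.

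Signalling genes showed a few small differences. In the BMP list, Bmp2, a ligand, was at 13.8 and 29.2 CPM (36 and 82 UMIs), a ratio of 2.12 (1.42 to 3.23). Acvrl1, an endothelial receptor of the same list, was at 429 and 443 CPM. The target genes Id1 and Id3 were at 396 and 386 and at 929 and 970 CPM. In the Notch list, 2 of 12 measured genes were higher by over 1.5-fold, where 1.08% of all measured genes were, and both calls were lost under some alternatives. Hey1, a Notch target, was at 50.1 and 82.2 CPM, a ratio of 1.64 (1.32 to 2.05) that was 1.14 in cells with none of the 7 excluding genes, and Jag1, a ligand, at 17.6 and 27.4 CPM, with a ratio of 0.94 without dividing cells. Notch1 was at 95.2 and 114 CPM and Dll4 at 58.5 and 54.1 CPM. Esm1, a VEGF-induced proteoglycan of tip cells, was at 13.4 and 24.9 CPM, but its ratio was 0.99 among cells with Xist and no Y-linked UMI. Of the Hedgehog list, which holds pathway components besides targets, only Foxf1, Hhip and the signal transducer Smo reached 100 UMIs. Foxf1, a forkhead factor of lung endothelium and mesenchyme, was at 740 and 809 CPM, above each of the 22 other clusters. Within the endothelial cluster it was similar, at 736 and 809 CPM in Car4-high and 639 and 744 CPM in arterial cells. Ptch1, the Hedgehog receptor and target, gave 43 and 19 UMIs, or 16.4 and 6.76 CPM, below the median of the other clusters (26.7 and 11.6 CPM), so no level of its own could be told from free RNA.

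Of the 17 measured genes of the flow, nitric oxide and endothelin list, 3 were higher by over 1.5-fold, where 1.08% of all measured genes were, and the other 14 lay within that fold. All 17 had log2 ratios above 0 (median 0.17), as did 50.8% of all measured genes. Nos3, the endothelial nitric oxide synthase, was at 32.9 and 52.0 CPM, a ratio of 1.58 (1.20 to 2.09), Ptgs1, a prostaglandin synthase, at 33.7 and 50.9 CPM, and Gucy1a3, a soluble guanylate cyclase subunit also held by pericytes, at 23.3 and 39.5 CPM. The ratio of Gucy1a3 was 0.70 among cells with Xist and no Y-linked UMI and 0.88 without dividing cells. The ratio of Nos3 was 1.20 in cells with none of the 7 excluding genes, and that of Ptgs1 was 1.14 over the whole cluster. Edn1, the vasoconstrictor endothelin, was at 62.0 and 89.0 CPM. The flow-induced factors Klf2 and Klf4 were at 1296 and 1328 and at 394 and 452 CPM.

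Venous genes were higher in the 5E1 cells, but not among cells with Xist. All 9 measured genes of the venous list lay above 0, with a median of 0.38, and 1 was past 1.5-fold: Slc6a2, with 106 and 198 UMIs, a ratio of 1.74 (1.37 to 2.22). Over all measured genes 50.8% lay above 0, and 1.08% were higher by over 1.5-fold. Vwf, the von Willebrand factor, was at 267 and 380 CPM. Among cells with Xist and no Y-linked UMI, however, the list's median was -0.0055, Vwf was at 277 and 271 CPM and Slc6a2 at 43.0 and 45.7 CPM. Without dividing cells, by unthinned G2 and M or S phase UMIs, the ratio of Slc6a2 was 0.98. This depended on the definition. When only cells with 2 or more G2 and M UMIs in 1 random thinning were left out, Slc6a2 was at 60.5 and 90.5 CPM. In the 122 5E1 cells with a Y-linked UMI and no Xist, Vwf was at 608 and Slc6a2 at 106 CPM.

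The venous transcripts came from few cells. Cells with 3 or more UMIs of Vwf plus Slc6a2 were 56 (9.84%, 7.52 to 12.6) of the IgG and 73 (12.8%, 10.1 to 15.8) of the 5E1 cells, a ratio of 1.30 (0.90 to 1.87), which spans 1. They are a range of a score and not a type, with 7 cells at the limit in each library. Genes that the score did not use also set them apart: Eln, the elastin precursor, was at 4724 and 5434 CPM against 869 and 608 in the remaining cells, Cpe, a carboxypeptidase, at 632 and 710 against 17.9 and 9.63, and Nr2f2 at 218 and 278 against 56.1 and 40.8. Gpihbp1 was lower in them, at 536 and 377 against 981 and 1196 CPM. Igtp was lower after 5E1 in these cells too, at 105 and 9.53 CPM.

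Cell cycle genes were lower after 5E1, again not among cells with Xist. All 22 measured G2 and M phase genes had log2 ratios below 0 (median -0.27), 2 of them past 1.5-fold: Cdc20, an activator of the anaphase-promoting complex, at 147 and 93.6 CPM, and Aurka, a mitotic kinase, at 42.5 and 27.4 CPM. Over all measured genes 50.8% were above 0, and 2.44% were lower by over 1.5-fold. Of 18 S phase genes 17 were below 0, and Rrm2, a ribonucleotide reductase subunit, was at 145 and 96.1 CPM, past 1.5-fold. Averaged over all thinnings to 1000 UMIs, 26.7% (22.8 to 30.8) of IgG and 18.5% (15.2 to 22.1) of 5E1 cells held 2 or more UMIs of the G2 and M list, a ratio of 0.69 (0.53 to 0.91), and unthinned shares were 42.5% and 29.5%. Single random thinnings gave ratios from 0.65 to 0.76 in 20 draws. Among cells with Xist and no Y-linked UMI the shares were 27.7% and 26.5%, a ratio of 0.96 (0.67 to 1.36), and the median of the G2 and M list was 0.14. That interval also holds the 0.69 of all cells, so a lower share among them was not excluded. In 119 5E1 cells with a Y-linked UMI and no Xist the share was 16.3% (10.2 to 24.2).

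**Figure D5:**
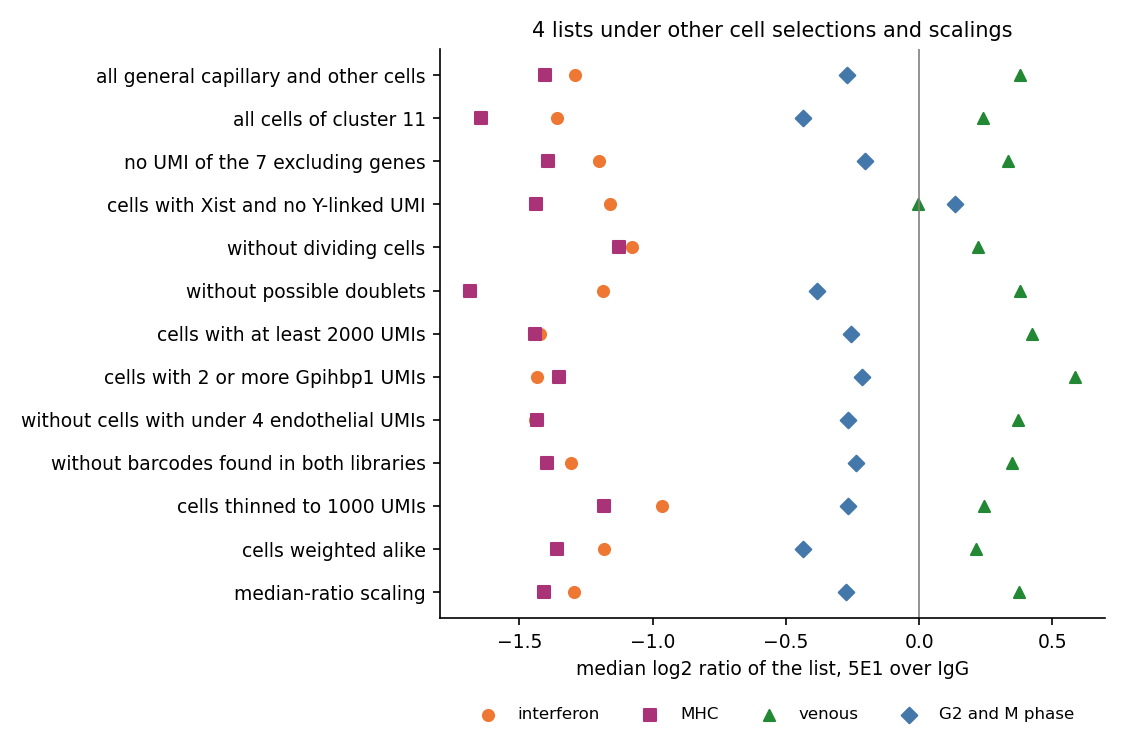
Median log2 ratio of 4 lists (x) in all general capillary and other cells and under 12 other cell selections or scalings (y). The interferon and MHC medians are at -0.96 or lower in each, whereas the venous and the G2 and M phase medians, at 0.38 and -0.27 in all cells, are at -0.0055 and 0.14 among cells with Xist and no Y-linked UMI.

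RNA of other cells moved with the condition. Sftpc, the alveolar type 2 surfactant gene, was at 1205 and 496 CPM in these cells and at 1204 and 772 CPM in the B cell cluster. The mesenchymal list, 5 of 8 measured genes lower by over 1.5-fold, had a median of -0.73, with Col1a2 at 198 and 88.3 CPM, and its summed level was 1554 and 910 CPM. The blood list, haemoglobins and platelet genes, had 4 of 6 measured genes higher by over 1.5-fold and a median of 0.68, but its median was -3.97 among cells with Xist and no Y-linked UMI. Of all measured genes 2.44% were lower and 1.08% higher by over 1.5-fold. Pf4 was at 25.2 and 119 CPM, but its ratio was 0.26 without the cells of under 4 endothelial UMIs. Ccl21a, a lymphatic chemokine, was at 57.4 and 14.6 CPM, with a ratio of 1.13 in cells of at least 2000 UMIs. In cells with 4 or more endothelial UMIs Sftpc was still at 1137 and 444 CPM. The part of free RNA in the differences above was not tested.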

How the data were processed

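Lung cells of both conditions were profiled with 10x Genomics 3' v2 chemistry. Per the submitters' processing notes, Cell Ranger 3.1.1 and mm10 were used; the matrix headers give software version 3.0.0. The deposited counts are raw UMI counts per gene and cell barcode. Cell retention and cluster numbers came from the authors' metadata, whose header is shifted by 1 column. Retained cells held 77436890 and 58890639 UMIs. Counts were summed per library and given as CPM with exact Poisson intervals; ratios had exact conditional binomial intervals, shares Clopper-Pearson intervals. Log2 ratios had 0.5 UMIs added to each sum. With 1 library per condition no test was possible. Intervals were tested on simulated Poisson sums, which hold no spread between cells or pups, so that test bears on counting error only. No doublet caller was run; an alternative left out cells mixing marker genes. Thinned shares of dividing cells and of cells with a gene are means over all thinnings (hypergeometric), adopted after 2 random draws were seen to differ. Named genes were list members with 100 UMIs, the 15 highest and 15 lowest ratios among genes with 200 UMIs and 50 CPM, and those leading against other clusters and groups. Cells, lists and rules were chosen with earlier results of these data known. Python 3.11.15, numpy 2.4.6, scipy 1.17.1, pandas 2.3.3 and matplotlib 3.10.9 were used; gene annotation was GENCODE on GRCm38.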

Additional observations from a re-analysis of the deposited data

How the results depend on the processing

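No paired analysis was possible because each condition has 1 library; for the same reason no replicate could be left out. Each alternative was chosen with earlier results known, and leaving out cells of under 4 endothelial UMIs, leaving out shared barcodes and averaging over thinnings were chosen after seeing the data. Genes higher and lower by over 1.5-fold numbered 69 and 156; they were 30 and 56 after thinning, 239 and 270 with cells weighted alike, 164 and 299 over all of cluster 11, and 41 and 66 without dividing cells. They were 493 and 731 at a minimum of 20 UMIs, 2387 and 2912 at 1 UMI, 2 and 33 at 500 UMIs, and 6 and 56 at 2-fold. Among cells with Xist and no Y-linked UMI 36 were higher. The cause of these moves was not tested, beyond fewer or more genes being measured. Shares of IgG and 5E1 cells were 5.95% and 9.33% of non-immune cells, and 44.0% and 43.5% of cluster 11, where the ratio of 0.99 turned the direction. They were 9.57% and 13.9% for the whole cluster, 2.38% and 3.40% for cells with none of the 7 excluding genes, and 7.24% and 10.6% with the rule applied after thinning. They were 3.40% and 5.42% without possible doublets, 3.20% and 4.90% at 2000 UMIs, and 3.87% for IgG without cells of under 4 endothelial UMIs. Of 31 list medians, 13 had the other sign among cells with Xist and no Y-linked UMI. They included venous (-0.0055), lymphatic (-0.027), immediate early (-0.22), blood (-3.97), G2 and M phase (0.14), S phase (0.12) and endothelial (-0.08), and 6 others that lay between -0.06 and 0.13 in all cells. The lymphatic median was -0.10 over cluster 11, and the immediate early median -0.0073 with none of the 7 genes. Among genes past 1.5-fold, ratios that crossed 1 without dividing cells were those of Slc6a2 (0.98), Jag1 (0.94), Gucy1a3 (0.88) and Rrm2 (2.12). Among cells with Xist they were those of Esm1 (0.99), Meg3 (0.77), Gucy1a3 (0.70) and Pf4 (0.14). Pf4 was also at 0.18 without possible doublets, 0.22 in cells with 2 Gpihbp1 UMIs and 0.26 without cells of under 4 endothelial UMIs. Ccl21a was at 1.13 in cells of at least 2000 UMIs. The cause was not tested.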

Other observations

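Among genes that no comparison above turned on, the clock gene Per1 was at 11.1 and 27.8 CPM in the IgG and 5E1 cells, a ratio of 2.50 (1.62 to 3.98) that ranged from 1.79 to 7.78 over the alternatives. Hypoxia-linked transcripts differed little: Ldha, a glycolytic enzyme, was at 420 and 403 CPM and Vegfa at 24.9 and 24.2 CPM. Fibin, listed with the Car4-high capillary genes, was at 29.1 and 9.61 CPM, which is below the median of the other clusters in both libraries (33.7 and 35.8 CPM), and its ratio of 0.33 was 0.82 over the whole endothelial cluster.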
